A study of Mus musculus with 6 samples.

Results

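The Ifitm family encodes small interferon-inducible transmembrane proteins, and all 6 of its members sought here, Ifitm1, Ifitm2, Ifitm3, Ifitm5, Ifitm6 and Ifitm7, were found by symbol among the 19938 genes of the array. They were represented by 9 probe sets of 35556, which were 2 for Ifitm1, 3 for Ifitm2 and 1 for each of the others. None of the 9 was shared with another symbol, and 0 probe sets listing several symbols included an Ifitm gene. The family was chosen by the measured difference between the groups, because Ifitm1 and Ifitm6 were among the genes that passed the threshold in the comparison described here. Their differences are therefore given as descriptions, and no p-value of this comparison supports them.

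The 6 arrays measured dendritic cells grown from bone marrow of female C57BL/6J mice that had been injected with 2000000 marrow cells. The cells came from congenic B6.SJL-Ptprca mice, marked by the CD45.1 alloantigen. In the naive-donor group (3 arrays, titled Control) the marrow donors were untreated. In the UV-donor group (3 arrays, titled UV irradiated) the donors had received up to 8 kJ/m2 of broadband ultraviolet radiation on shaved dorsal skin at 6 to 10 weeks of age, the age the study gives for irradiation unless otherwise stated. Marrow of both groups of recipients was cultured for 5 days with 10 ng/ml each of GM-CSF and IL-4 and enriched to over 95% CD11c+ cells. The share of donor-derived cells in the cultures and the treatment of recipients before injection are not given in the sources used here, nor is the number of mice behind the 3 preparations of a group. The spread between arrays may therefore be technical.

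Ifitm proteins sit in cellular membranes and hinder the fusion of viral with cellular membranes. Ifitm1 lies mainly at the cell surface, while Ifitm2 and Ifitm3 act mainly in endosomes and lysosomes. Type I and type II interferons induce several of these genes, and many stem and progenitor cells express some of them without interferon. Ifitm5 differs in being a protein of bone-forming osteoblasts. Ifitm5, Ifitm2, Ifitm1, Ifitm3 and Ifitm6 follow each other on chromosome 7, and Ifitm7 lies alone on chromosome 16.

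Stretches before the transcript starts of 4 cluster members are shown for reference. They are Ifitm1 and Ifitm6, which differed, and Ifitm2 and Ifitm3, which differed little. Each holds the 250 bases before the start that RefSeq gives (mouse build GRCm38.p6), 5′ to 3′ on the strand of the gene. The regions are chr7:140967826-140968075 on the plus strand for Ifitm1, and on the minus strand chr7:141016893-141017142 for Ifitm6, chr7:140955962-140956211 for Ifitm2 and chr7:141010745-141010994 for Ifitm3. Capitals mark matches to 3 motifs: the core of the interferon-stimulated response element (ISRE), GAAA, any 2 bases and GAAA again; the gamma-activated site (GAS), TTCNNNGAA; and the TATA box, TATAAA.
Ifitm1: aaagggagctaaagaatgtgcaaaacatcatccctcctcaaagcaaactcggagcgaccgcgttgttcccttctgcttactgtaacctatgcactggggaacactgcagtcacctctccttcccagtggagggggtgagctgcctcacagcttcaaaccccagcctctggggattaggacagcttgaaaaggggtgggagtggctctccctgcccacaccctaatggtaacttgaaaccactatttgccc
Ifitm6: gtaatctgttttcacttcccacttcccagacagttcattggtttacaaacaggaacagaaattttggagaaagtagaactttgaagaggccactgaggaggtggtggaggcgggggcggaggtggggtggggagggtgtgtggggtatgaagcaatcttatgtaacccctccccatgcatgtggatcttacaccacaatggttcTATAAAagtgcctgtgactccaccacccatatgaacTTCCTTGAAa
Ifitm2: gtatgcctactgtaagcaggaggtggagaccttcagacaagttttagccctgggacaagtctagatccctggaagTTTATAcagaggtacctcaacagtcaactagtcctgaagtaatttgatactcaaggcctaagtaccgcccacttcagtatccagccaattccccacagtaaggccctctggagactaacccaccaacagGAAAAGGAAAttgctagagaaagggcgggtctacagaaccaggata
Ifitm3: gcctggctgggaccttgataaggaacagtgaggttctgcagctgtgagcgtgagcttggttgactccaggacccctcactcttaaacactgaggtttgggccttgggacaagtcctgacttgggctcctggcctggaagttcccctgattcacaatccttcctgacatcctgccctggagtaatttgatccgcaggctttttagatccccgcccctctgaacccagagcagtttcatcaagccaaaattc
Ifitm3, bases 3 to 29 after its start, with both ISRE cores in capitals: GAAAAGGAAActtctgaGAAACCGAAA

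The motifs were sought on both strands in the 300 bases from 250 before to 50 after each start. Ifitm2 held 1 ISRE core, at bases -46 to -37, and 1 TATA box on the opposite strand. Ifitm3 held 2 ISRE cores, both within the first 29 bases of its transcript, and a GAS at bases 14 to 22 that overlaps the second of them. Ifitm6 held no ISRE core, 1 GAS at bases -10 to -2 and 1 TATA box at -46 to -41. No match to these motifs was found in the window of Ifitm1, nor in those of Ifitm5 and Ifitm7. The STAT6 spacing, TTC, any 4 bases and GAA, matched in none of the 6. Of 32851 promoter windows in the table, 3.44% held an ISRE core, 8.3% a GAS, 6.95% the STAT6 spacing and 13.6% a TATA box. Of the 32 antiviral effector genes listed for a comparison further on, 24 have a window, and 14 of these held an ISRE core. That count is by gene, while the 3.44% is by window. These 24 were set by having a window, and the 24 effectors tested further on by the filter on dim genes. A match describes letters in this window and shows no binding, and a missing match does not show that interferon fails to induce a gene. Whether the motifs relate to the differences between the groups was not tested.

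The 2 groups were compared over 13956 genes with limma, a linear model that pools variance across genes. A gene counted as called when its Benjamini-Hochberg adjusted p was under 0.05. In this comparison 24 genes, or 0.172%, were called higher and 0 lower. The unadjusted p was under 0.05 for 1340 genes with higher and 766 with lower values. With array medians centred these counts were 2052 and 302, and the median difference over all tested genes moved to 0.04. With no filter on dim genes they were 1400 and 1232. All 6 Ifitm genes passed the filter on dim genes, a mean log2 signal of 6.58, and 2 of the 6 were called. That count reflects how the family was chosen. The groups did not overlap for 3 of the 6 Ifitm genes, as for 21.8% of all tested genes. The median log2 difference was 0.08 over the 6 Ifitm genes and 0.00 over all tested genes (0.0016).

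Ifitm1, the family member of the cell surface, was higher on every UV-donor array. Its probe set 10558769 read 11.42, 11.41 and 11.42 on naive-donor arrays 1 to 3 and 12.06, 12.31 and 12.09 on UV-donor arrays 1 to 3, on the log2 scale. The naive-donor arrays lay within a few hundredths of each other, the UV-donor arrays were all above them, and UV-donor replicate 2 was highest. The means were 11.42 ± 0.01 and 12.15 ± 0.14 (SD, n = 3 each), a log2 difference of 0.74 (SE 0.07, 95% interval 0.58 to 0.90), or 1.67-fold.

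The other Ifitm1 probe set, 10570434, took no part in the gene test, where the brighter probe set stood for a gene. It read 10.60, 10.51 and 10.57 on the naive-donor arrays and 11.31, 11.61 and 11.31 on the UV-donor arrays. UV-donor replicate 2 was again highest and the groups did not overlap. The log2 difference was 0.85 (SE 0.09 in a fit of all probe sets, 95% interval 0.62 to 1.07), or 1.80-fold. After each profile was centred on its own mean, the 2 Ifitm1 probe sets differed by 0.06 (root mean square over the 6 arrays, log2). Both are annotated with the same symbol and Entrez identifier, so they repeat 1 gene rather than add a replicate.

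Ifitm6, a family member described in mouse myeloid cells, was also higher on every UV-donor array. Probe set 10569020 read 7.91, 8.14 and 8.03 on the naive-donor arrays and 8.75, 8.56 and 8.54 on the UV-donor arrays. The groups did not overlap, and here UV-donor replicate 1 was highest. The means were 8.03 ± 0.11 and 8.62 ± 0.11 (SD, n = 3 each), a log2 difference of 0.59 (SE 0.08, 95% interval 0.41 to 0.77), or 1.51-fold. The centred profiles of Ifitm6 and Ifitm1 (10558769) differed by 0.16 on the same root mean square measure, more than the 0.06 between the Ifitm1 probe sets.

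Ifitm2, an endosomal member, differed little on any of its 3 probe sets. Probe set 10383756, which stood for the gene, read 12.93, 12.95 and 12.94 on the naive-donor arrays and 13.07, 13 and 12.98 on the UV-donor arrays. These groups did not overlap, yet the log2 difference was 0.08 (SE 0.05, 95% interval -0.03 to 0.18), or 1.05-fold. Probe set 10569014 differed by 0.09 (95% interval -0.03 to 0.20) without overlap, and probe set 10553299 by 0.04 (-0.08 to 0.16) with overlap. All 3 intervals included 0.

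Ifitm3, the best studied antiviral member, read 12.39, 12.36 and 12.35 on the naive-donor arrays and 12.54, 12.34 and 12.49 on the UV-donor arrays (probe set 10569017). UV-donor replicate 2, the highest array for Ifitm1, was the lowest of all 6 for Ifitm3. The groups overlapped, with means of 12.37 ± 0.02 and 12.46 ± 0.11 (SD, n = 3 each) and a log2 difference of 0.09 (SE 0.06, 95% interval -0.05 to 0.23).

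Ifitm5, the osteoblast member, read 7.67, 7.74 and 7.77 on the naive-donor arrays and 7.63, 7.73 and 7.56 on the UV-donor arrays (probe set 10569011). The groups overlapped and the log2 difference was -0.09 (SE 0.06, 95% interval -0.22 to 0.04). Ifitm7, the member outside the cluster, read 7.06, 7.10 and 7.13 on the naive-donor arrays and 7.08, 7.04 and 7.17 on the UV-donor arrays (probe set 10437846). Its groups overlapped as well, with a log2 difference of -0.0026 (95% interval -0.12 to 0.12). For neither gene did the groups separate.

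**Figure D1:**
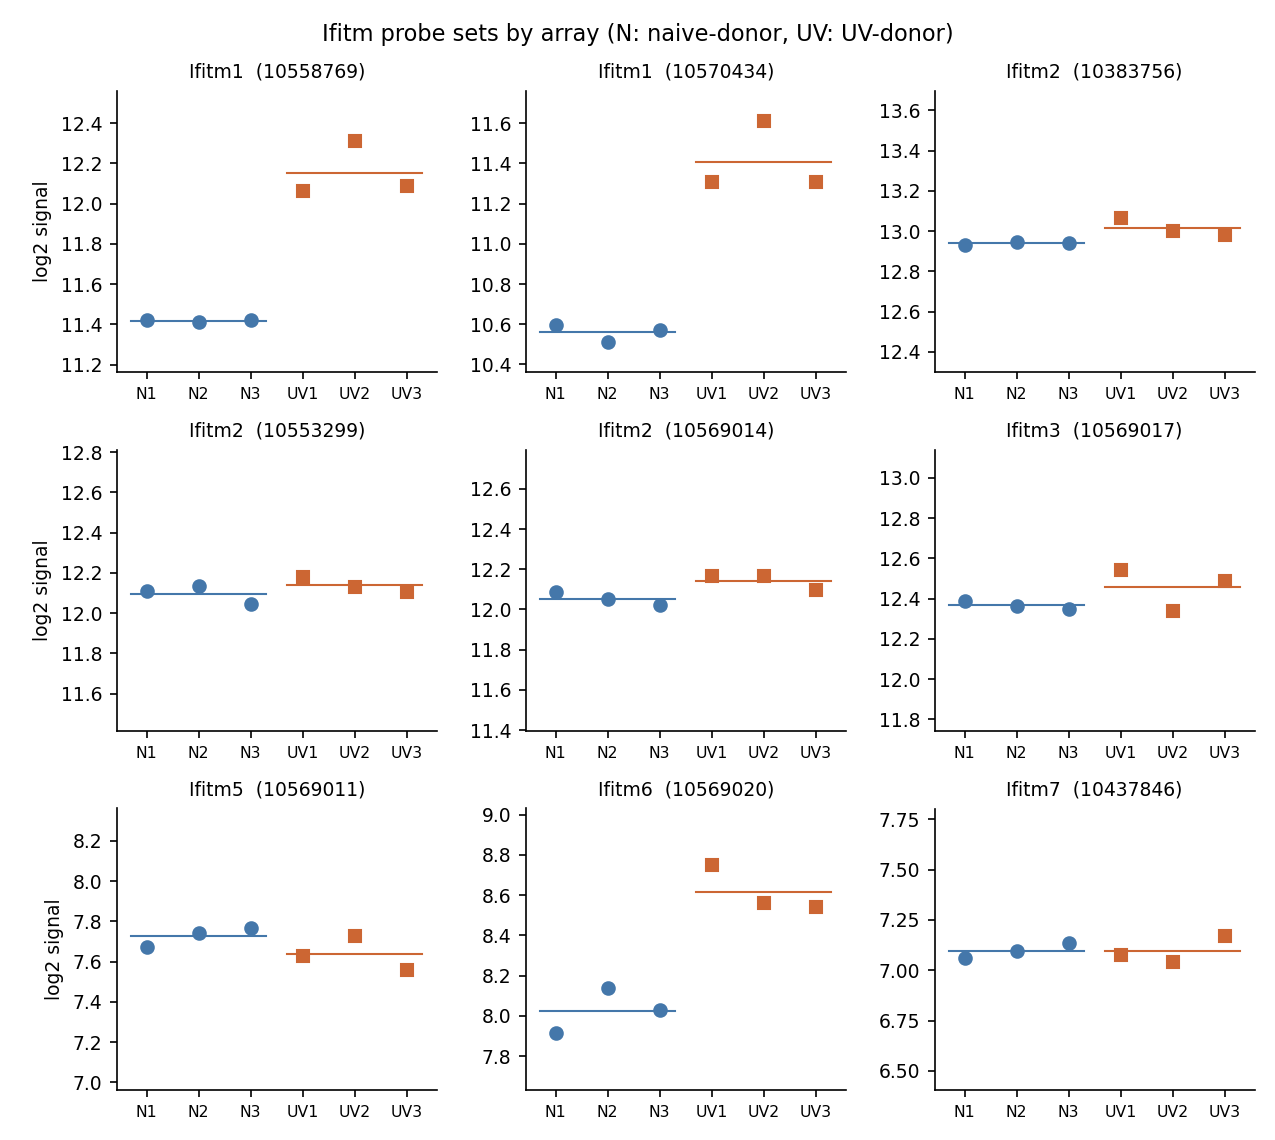
Log2 signal (vertical axes, each spanning the same number of log2 units) of the 9 Ifitm probe sets on the 3 naive-donor arrays (N, circles) and the 3 UV-donor arrays (UV, squares); horizontal lines are group means. Both Ifitm1 probe sets and the Ifitm6 probe set sit higher on every UV-donor array, and UV-donor replicate 2 is the highest array for Ifitm1 (12.31) and the lowest for Ifitm3 (12.34).

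Array probe sets differ in how strongly they bind, so the levels of different Ifitm genes are not ordered here. The family members share stretches of sequence, and probe sequences were not used here, so how far a probe set of 1 member also reads another was not tested. The 95% intervals of Ifitm1 and Ifitm6 did not overlap those of Ifitm2, Ifitm3, Ifitm5 or Ifitm7. The difference between members was not tested itself, because the same comparison had chosen them. At the threshold of 0.05 the adjusted p of Ifitm6 lay just inside (0.0387) and that of Ifitm2 was the nearest outside (0.465), with Ifitm1 at 0.0199; these limma values chose the family and are given once.

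The position of Ifitm1 and Ifitm6 among the called genes changed when single arrays were left out. Such a fit has fewer arrays for every gene, and the genes called in all then numbered from 1 to 32, against 24 with every array. Ifitm1 stayed under the threshold without naive-donor replicate 2, UV-donor replicate 1 or UV-donor replicate 2, and rose above it without naive-donor replicate 1 (limma adjusted p = 0.110), naive-donor replicate 3 (0.122) or UV-donor replicate 3 (0.0813). Ifitm6 stayed under it only without naive-donor replicate 2 (0.0421) and had limma adjusted p-values from 0.0523 to 0.173 without any 1 of the other 5 arrays. The differences themselves moved less, from 0.66 to 0.78 for Ifitm1 (10558769) and from 0.53 to 0.65 for Ifitm6.

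**Figure D2:**
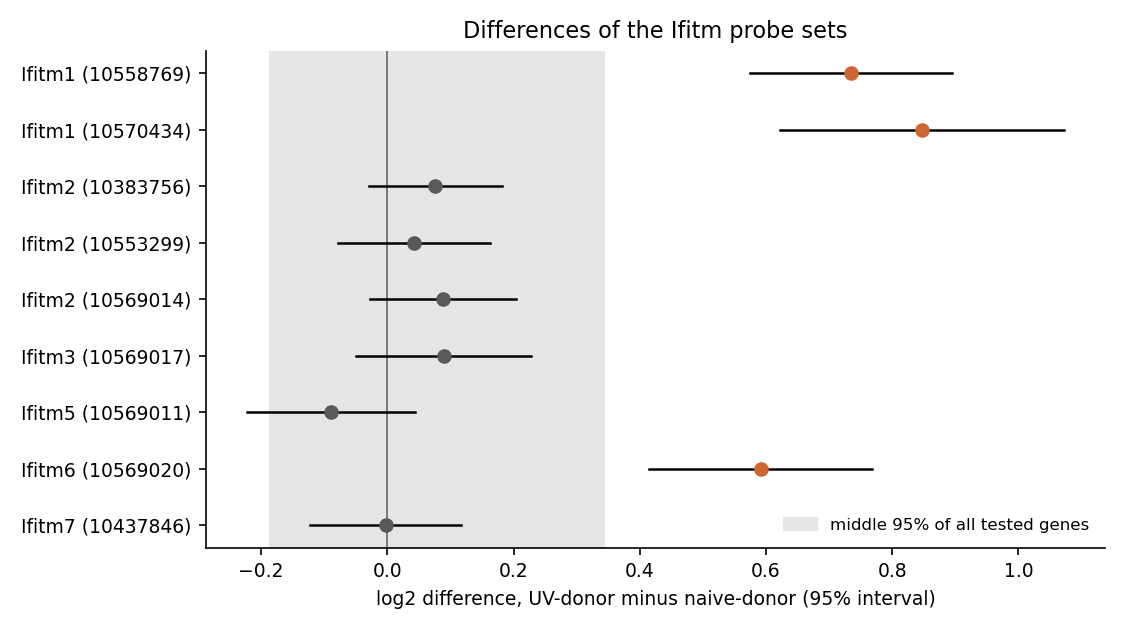
Log2 difference, UV-donor minus naive-donor (horizontal axis), of each Ifitm probe set with its 95% interval from limma; the grey band holds the middle 95% of all 13956 tested genes (-0.19 to 0.34). The Ifitm1 (0.74 and 0.85) and Ifitm6 (0.59) probe sets lie outside the band, and the intervals of the other 6 probe sets include 0.

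The chromosomal neighbours of the cluster were examined next, as genes that the choice of the family did not use. Of the 8 protein-coding genes on each side in the RefSeq table, 14 of 16 were tested. None was called, where 0.172% of all tested genes were. At an unadjusted p under 0.05 (limma) 0 were up and 1 was down, and the median log2 difference was -0.02. The lower one was Nlrp6, an inflammasome sensor and the second gene before the cluster, at -0.17 (SE 0.06, limma adjusted p = 0.236), with non-overlapping groups. Lrrc56 differed by 0.11 and Pkp3, a desmosomal plakophilin, by -0.09, with limma adjusted p-values of 0.398 and 0.411. The genes that flank the cluster directly were Pgghg, at 0.0038 (95% interval -0.15 to 0.16), and B4galnt4, at -0.06 (-0.22 to 0.10). Within the cluster Ifitm1 and Ifitm6 were separated by Ifitm3, whose difference was 0.09.

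**Figure D3:**
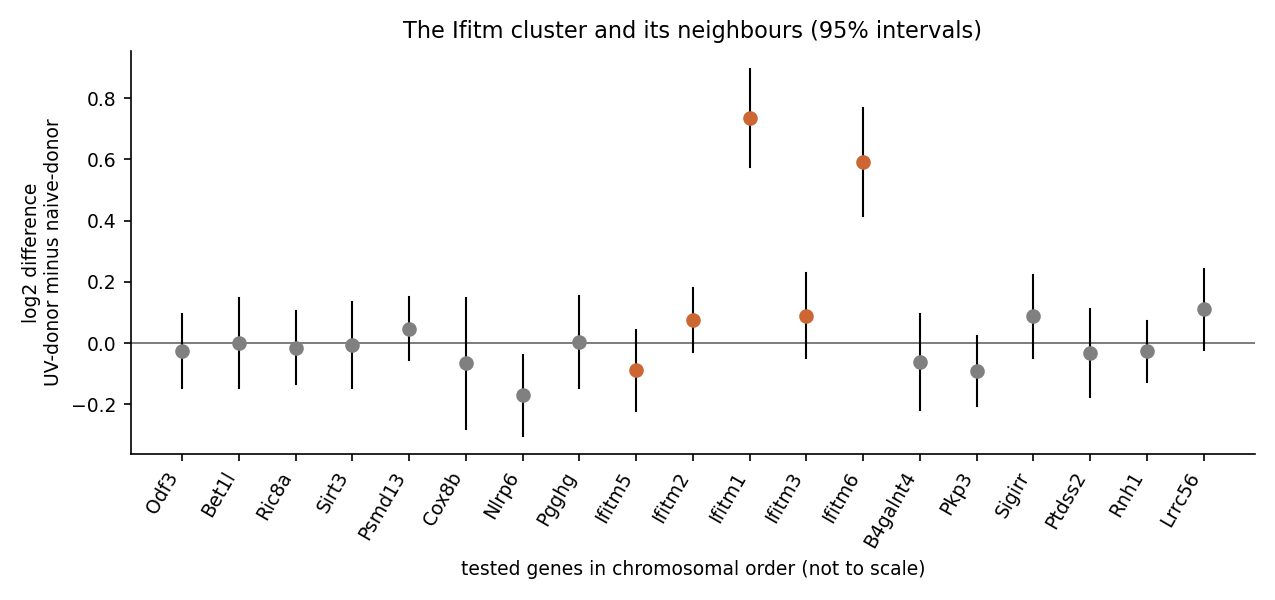
Log2 difference, UV-donor minus naive-donor (vertical axis), with 95% intervals for the 5 cluster members (orange) and their 14 tested neighbours (grey) in chromosomal order, not to scale. Ifitm1 (0.74) and Ifitm6 (0.59) stand above the rest, and the neighbours run from -0.17 to 0.11.

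The interferon pathway, which acts upstream of the family, gave no called gene. Over all tested genes 0.172% were called, so short lists such as this and the next ones mostly hold none. Receptors and JAK-STAT members were split, with 8 higher and 7 lower in value of 15 tested, 0 called, 2 up and 0 down at an unadjusted p under 0.05 (limma), and a median log2 difference of 0.0043. With array medians centred 13 of the 15 were higher in value. The type I receptor chain Ifnar1 differed by -0.01 (95% interval -0.12 to 0.09) and the type II receptor chain Ifngr1 by -0.01 (-0.12 to 0.09); both are named outside the naming rule. By the rule, the transcription factors Irf1 and Irf5 differed by 0.21 and 0.11 and the kinase Tyk2 by 0.18, with limma adjusted p-values from 0.320 to 0.386. Irf1 read 10.37, 9.98 and 10.25 on the naive-donor arrays and 10.44, 10.39 and 10.41 on the UV-donor arrays, so its groups did not overlap but lay close.

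Of 10 interferon ligands 8 had a 1-symbol probe set and 4 passed the filter. Among these 0 were called, and 0 higher and 1 lower had an unadjusted p under 0.05 (limma). That 1 was Ifna2, an interferon alpha, which read 7.13, 7.04 and 7.16 on the naive-donor arrays and 6.85, 6.89 and 6.84 on the UV-donor arrays (difference -0.25, limma adjusted p = 0.116). Ifna5 (-0.16) and Ifnl2, an interferon lambda (-0.05), had limma adjusted p-values of 0.398 and 0.772.

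Genes that restrain interferon signalling had higher values in all 7 tested members, with a median of 0.09, 0 called, and 2 up and 0 down at an unadjusted p under 0.05 (limma). The 2 were the phosphatase Ptpn6 (0.17, limma adjusted p = 0.221) and the cytokine suppressor Socs1 (0.13, 0.267), both with non-overlapping groups. Under quantile normalization or cyclic loess 6 of the 7 were higher. Socs3, a suppressor best known for STAT3 signals, differed by 0.17 with overlapping groups (limma adjusted p = 0.536).

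Interferon-stimulated antiviral effectors are often induced together with Ifitm genes. Of 24 tested effectors 16 had higher and 8 lower values, 0 were called, 4 were up and 0 down at an unadjusted p under 0.05 (limma), and the median was 0.05. Differences ran from -0.17 to 0.34, so no effector reached the differences of Ifitm1 or Ifitm6. Isg20, an exonuclease that degrades RNA, differed by 0.25 (SE 0.06, limma adjusted p = 0.149), reading 9.31, 9.36 and 9.26 on the naive-donor arrays and 9.49, 9.67 and 9.53 on the UV-donor arrays. Ifi27l2a differed by 0.34 (SE 0.12, limma adjusted p = 0.262) with overlapping groups. Ifi35 differed by 0.13 (SE 0.05, limma adjusted p = 0.290).

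Other factors that act against viruses at membranes gave a like picture. Of 8 tested genes 5 had higher values, 0 were called and 0 had an unadjusted p under 0.05 (limma), with a median of 0.04. The oxysterol enzyme Ch25h differed by -0.15, the surface protein Ly6e by 0.08 and Ncoa7, which binds the vacuolar proton pump, by 0.10, with limma adjusted p-values from 0.390 to 0.541.

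Genes for the handling of Ifitm proteins were tested as well, including the palmitoyltransferases that anchor them, the ubiquitin ligase Nedd4 that marks Ifitm3 for breakdown, and the AP-2 adaptor that internalises it. Of 19 tested genes 12 had higher values, 0 were called, 2 were up and 0 down at an unadjusted p under 0.05 (limma), and the median was 0.01. The split followed the scaling, with 17 higher after centring of medians, 9 after quantile normalization and 8 after cyclic loess. Nedd4 differed most, reading 9.91, 10.09 and 9.64 on the naive-donor arrays and 10.68, 10.28 and 10.12 on the UV-donor arrays (difference 0.48, SE 0.16, limma adjusted p = 0.218). The groups were separated by a narrow gap and the arrays within each spread widely. The depalmitoylase Lypla2 (0.12) and the adaptor subunit Ap2s1 (0.09) had limma adjusted p-values of 0.287 and 0.378.

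Partners of Ifitm1 at the cell surface include the tetraspanin Cd81. Of 7 tested tetraspanins 3 had higher and 4 lower values, 0 were called and 0 had an unadjusted p under 0.05 (limma), with a median of -0.02. Cd81 differed by -0.13 (SE 0.06, limma adjusted p = 0.333), Cd9 by 0.09 and Cd53 by -0.05.

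The wider CD225 family shares the membrane-inserting domain of Ifitm proteins. Its tested genes were rather dim, with naive-donor means from 7.04 (Syndig1) to 8.47 (Tmem91) against a filter at 6.58. Genes lower at an unadjusted p under 0.05 (limma) numbered 336 with a filter at the 50th percentile and 1232 with none. Higher ones numbered 1166 and 1400, so the dim genes added mostly lower ones. Whether the CD225 genes depart from other dim genes was not tested. All 6 tested members had lower values, with a median of -0.08, 0 called, and 0 up and 2 down at an unadjusted p under 0.05 (limma). Under each of the other 3 scalings 5 of the 6 were lower. The ones past that unadjusted threshold were Syndig1, a synaptic membrane protein (-0.24, limma adjusted p = 0.157), and Tmem91 (-0.14, limma adjusted p = 0.222), both with non-overlapping groups. Syndig1l differed by -0.09, and Ifitm10, the member that shares the Ifitm name but not the cluster, by -0.07 (95% interval -0.19 to 0.04; chosen by name after its value was seen).

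**Figure D4:**
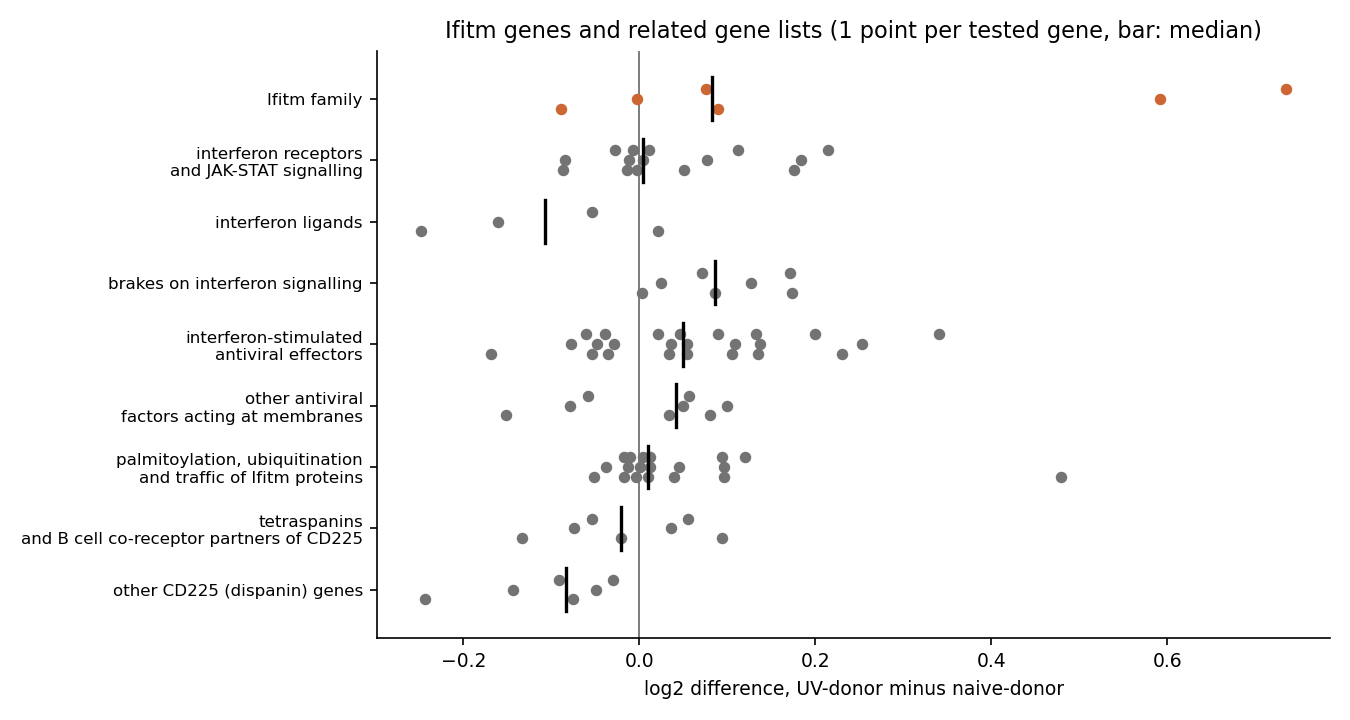
Log2 difference, UV-donor minus naive-donor (horizontal axis), of each tested gene of the Ifitm family (orange) and of 8 related lists (grey); black bars are medians. Ifitm1 (0.74) and Ifitm6 (0.59) lie to the right of every listed gene, of which Nedd4 (0.48) and Ifi27l2a (0.34) are nearest.

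The genes with profiles most like those of the 2 members that varied most were sought by the root mean square difference between centred profiles over the 6 arrays. For Ifitm1 these were the decoy interleukin-1 receptor Il1r2 (distance 0.08, log2 difference 0.77), the calcium-binding S100a8 (0.08, 0.77), Sectm1a (0.08, 0.77), the vesicle GTPase Rab27a (0.08, 0.61) and the hormone Fgf23 (0.09, 0.64). All 5 had their highest value on UV-donor replicate 2, as Ifitm1 did. For Ifitm6 they were Cdca7 (distance 0.06, log2 difference 0.65), the mitotic kinase Aurka (0.06, 0.53), the glutathione transferase Gstk1 (0.06, 0.50), the replication factor Gins1 (0.06, 0.49) and the kinetochore protein Cenph (0.06, 0.62). All 5 had their highest value on UV-donor replicate 1, as Ifitm6 did. The naive-donor mean of Cenph (6.27) lay under the filter on dim genes, which Cenph passed only through its UV-donor values (mean 6.89). Its difference is therefore measured from a dim group. Neither list held another Ifitm gene or a gene of the other list. Both lists were drawn from 13956 genes over 6 arrays in 2 groups, so any gene with a similar group difference is favoured. A shared highest array, and lists that do not overlap, are favoured too, because the distance was taken over these same arrays. Likeness here is a description only.

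**Figure D5:**
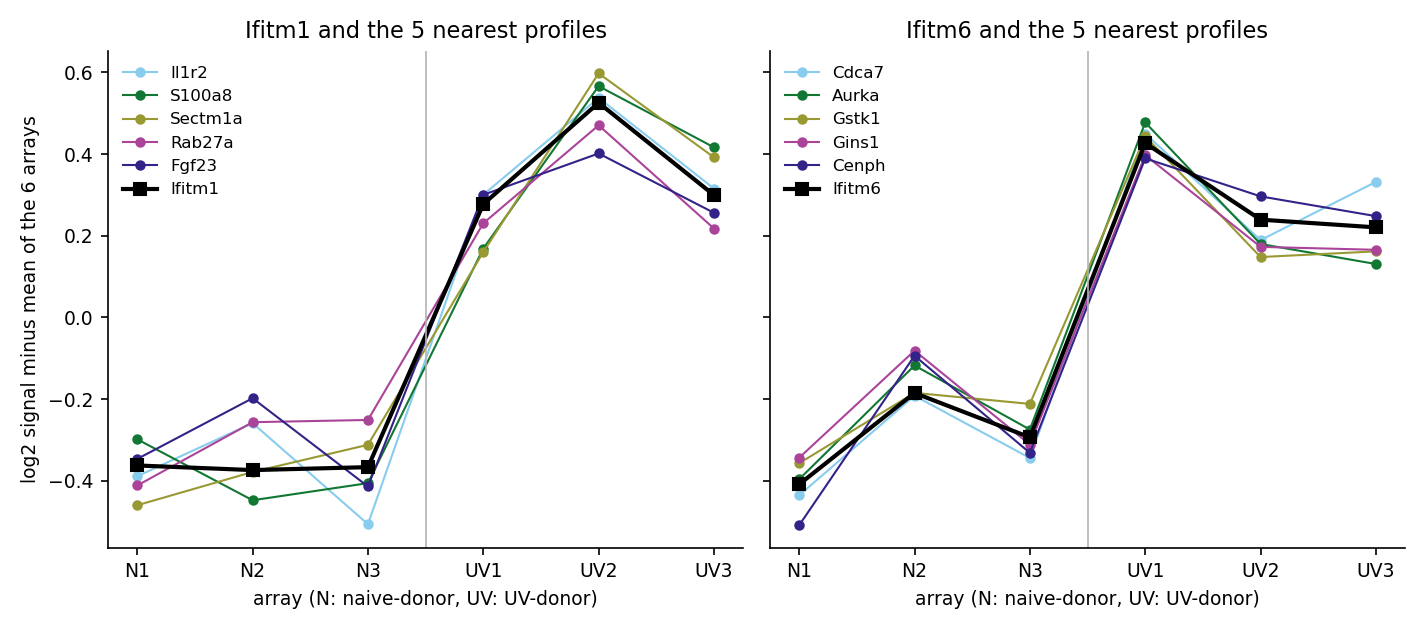
Log2 signal minus the mean of the 6 arrays (vertical axis) for Ifitm1 and for Ifitm6 (black squares), each with the 5 genes of nearest profile (coloured circles), on naive-donor (N) and UV-donor (UV) arrays. The highest array is UV-donor replicate 2 for Ifitm1 and its neighbours and UV-donor replicate 1 for Ifitm6 and its neighbours. Choice by nearest profile favours such a shared highest array.

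Markers of cell types that the preparations could hold are given beside these values. In RNA from a mixed preparation, fewer cells of a type and less RNA per cell cannot be told apart. Of 15 tested neutrophil markers 12 had higher values, with a median of 0.26, 2 were called higher, and 8 were up and 0 down at an unadjusted p under 0.05 (limma). The 2 called were lactoferrin, Ltf (0.54, limma adjusted p = 0.0199), and S100a8 (0.77, limma adjusted p = 0.0365). Ltf kept its call only without naive-donor replicate 2 or UV-donor replicate 1 (limma adjusted p from 0.0751 to 0.110 without any 1 of the others), and S100a8 only without UV-donor replicate 1 (0.0681 to 0.173). The widest differences of the list were those of the granule protein Ngp (1.03, limma adjusted p = 0.0551) and the surface protein Ly6g (0.88, limma adjusted p = 0.152), both above the 0.74 of Ifitm1 and both named after their values were seen. The 3 neutrophil markers lower in value were Prtn3 (-0.12, groups not overlapping), Elane (-0.03) and Camp (-0.02), named outside the naming rule. The mean log2 signal of the 15 markers was 8.44 to 8.59 on the naive-donor arrays and 8.73 to 8.89 on the UV-donor arrays.

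Macrophage and dendritic cell markers each held 1 called gene. C1qb, a complement subunit of macrophages, differed by 0.63 (limma adjusted p = 0.0199), and 5 of 8 tested macrophage markers had higher values (4 up and 0 down at an unadjusted p under 0.05, limma), their mean being 9.09 to 9.16 on the naive-donor and 9.32 to 9.38 on the UV-donor arrays. Next in that list was the surface receptor Adgre1 (0.51, limma adjusted p = 0.0627). The 3 macrophage markers lower in value were Mrc1 (-0.10, groups not overlapping), Mertk (-0.06) and Marco (-0.05), named outside the naming rule. Cd209a, a lectin of cultured dendritic cells, differed by 0.59 (limma adjusted p = 0.0199), followed by the class II transactivator Ciita (0.49, limma adjusted p = 0.126), with 7 of 11 dendritic cell markers higher in value (9 with array medians centred; 2 up and 0 down at an unadjusted p under 0.05, limma) and means of 11.49 to 11.56 and 11.63 to 11.66. C1qb kept its call only without naive-donor replicate 2 or UV-donor replicate 1 (limma adjusted p from 0.0751 to 0.122 otherwise), and Cd209a only without either of these or naive-donor replicate 3 (0.0618 to 0.0813 otherwise). Itgax, which encodes the CD11c of the enrichment, read 13.75 to 13.79 on the naive-donor arrays and 13.71 to 13.75 on the UV-donor arrays, so the labelled cell type's defining marker was present throughout. The part of any of these cell types in the Ifitm values was not tested.

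The remaining marker lists held no called gene, as most lists this short would with 0.172% of all tested genes called. All 7 tested progenitor markers had higher values (2 up and 0 down at an unadjusted p under 0.05, limma), led by Cd34 (0.76, limma adjusted p = 0.120) and Gata2 (0.12, limma adjusted p = 0.257), with list means of 7.54 to 7.67 and 7.75 to 7.85. The 6 monocyte markers were split 3 to 3, or 5 to 1 toward higher values with array medians centred, led by F13a1 (0.50) and Ms4a6c (0.84), with means of 9.57 to 9.83 and 9.82 to 10.04. Both tested eosinophil markers, Prg2 (0.75) and Siglecf (0.19), had higher values. Of 5 stromal and endothelial markers, a compartment rich in Ifitm transcripts, 4 had lower values, with means of 8.37 to 8.38 and 8.27 to 8.33, led by Pecam1 (0.23) and Col3a1 (-0.19). Of 4 plasmacytoid markers 2 had higher values, Spib (0.31) and Tcf4 (0.28), and 2 lower, Siglech (-0.09) and Ly6d (-0.04); under quantile normalization or cyclic loess 3 of the 4 were higher. Of 4 erythroid and platelet markers 3 had higher values, led by Pf4 (0.21) and Ppbp (0.34), and Klf1 a lower one (-0.03), which turned higher under each of the 3 other scalings. Of the B cell list 4 of 5 genes had a 1-symbol probe set and 2 passed the filter. Of the T and NK list 3 of 8 passed it, and of the mast cell and basophil list 1 of 6. Of the osteoblast list, the cells of Ifitm5, 5 of 6 genes had a 1-symbol probe set and 1 passed. The genes that passed were Cd79b (0.06) and Pax5 (-0.04), Cd8a (-0.11), Gzmb (0.22) and Cd3e (0.07), Tpsb2 (0.01) and Alpl (-0.09). At an unadjusted p under 0.05 (limma) these remaining lists together held 10 higher and 2 lower genes, the progenitor genes among them.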

How the data were processed

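Biotin-labelled total RNA of 6 CD11c-enriched preparations was hybridised to Affymetrix mouse gene arrays. The authors deposited 1 normalized log2 signal per probe set and array, the log2 scale being read from the values (array medians 7.16 to 7.23). RMA, oligo and limma are named in the submitters' processing notes without versions, and the summary level is not given there. RMA equalises arrays, so shifts common to all genes are largely removed. Small differences between the groups remained over all probe sets. Medians were 7.19 to 7.23 on the naive-donor arrays and 7.16 to 7.18 on the UV-donor arrays. Interquartile ranges were 3.61 to 3.68 and 3.71 to 3.75. The source of these differences was not tested. Pearson correlations over all probe sets were 0.995 to 0.997 within groups and 0.995 to 0.996 between them. Arrays carry no counts, and their number limits the precision. Batches are not given in the sources used here.

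Probe sets were named through the platform annotation and matched by Entrez identifier to RefSeq names (21698 of 21789 with 1 symbol). The brightest 1-symbol probe set stood for a gene, and genes under the 30th percentile were left out. The comparison, UV-donor minus naive-donor, used lmFit and eBayes of limma 3.58.1 (R 4.3.3), two-sided, with Benjamini-Hochberg adjustment. An exact permutation test of 3 against 3 arrays cannot go below a p of 0.1. Ifitm probe sets outside the gene test take their errors from a fit of all probe sets. A simulation built on the means and variances of these 13956 genes held 200 changed genes. The fit recovered 61.2% of them at a change of 0.3 and 98.9% at 0.6 (log2), with 5.06% false calls. These rates hold for that number of changed genes and that simulated noise. They set no limit on the differences of genes not called here. Measured differences above 0.6 were called for some genes (Ifitm1, 0.74) and not for others (Ngp, 1.03, and Ly6g, 0.88). Figures were drawn with matplotlib 3.10.9.

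The members and lists were chosen with earlier results of these data known. Named were every member, called genes of each list filled by smallest p to 3 (markers 2), and the 5 nearest profiles for members with an SD of at least 0.15; exceptions are marked in the text. Alternatives were the replicate block, other filters, scalings, variance models, weights, thresholds and probe set rules, and leaving out each array. Deviations of same-numbered arrays correlated at -0.13, -0.22 and 0.15, which shows no pairing by replicate number but cannot exclude one.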

Additional observations from a re-analysis of the deposited data

How the results depend on the processing

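The count of 24 called genes was 43 with centred array medians, 43 with array weights, 45 with an intensity trend and robust prior, and 70 at an adjusted p under 0.10. A test of every probe set gave 0 (limma; unadjusted p under 0.05 in 1801 upward and 1708 downward). With the replicate block, a pairing that the arrays' deviations neither show nor exclude, it was also 0 (limma, with unadjusted p under 0.05 in 1286 upward and 666 downward). The range without single arrays was 1 to 32. Ifitm1 and Ifitm6 were both called under every alternative other than these last 3 kinds. The number of Ifitm genes called was 0 with all probe sets tested, 0 with the replicate block (limma adjusted p = 0.0691 for Ifitm1 and 0.148 for Ifitm6) and 0 to 2 with single arrays left out. Over the 11 alternatives tried for each probe set, differences ranged from 0.66 to 0.78 and 0.75 to 0.90 for the Ifitm1 probe sets. Those of Ifitm6 ranged from 0.53 to 0.65. Their sign could not turn when an array was left out, because the groups did not overlap. The replicate block leaves the difference itself unchanged, so a kept sign adds nothing there either. Ifitm7 ranged from -0.04 to 0.03. The cause of these moves was not tested. The precision is limited by 3 arrays per group.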
